A study of Rattus norvegicus with 6 samples.

Results

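The 36 genes described here mark leukocytes and the presentation of antigen in the rat. They comprise the pan-leukocyte gene Ptprc, 12 macrophage and monocyte genes, 9 T cell genes, 2 genes of cytotoxic cells, the B cell gene Pax5, 4 chemokine and cytokine genes, 2 neutrophil genes and 5 genes of antigen presentation. Each was found on the array through the RefSeq accession of its probes, and all 36, of 45433 genes or unnamed targets on the array, had at least 1 probe. The tissue was renal cortex of male Sprague-Dawley (Crl:CD(SD)) rats, bought at an age of 5 weeks. One group of 3 rats received corn oil, the vehicle, for 4 weeks, and the other group of 3 received monuron, a phenylurea herbicide, at 200 mg/kg/day for 4 weeks. Total RNA was labelled with Cy3 and hybridised to 1-colour Agilent arrays, 1 array per sample.

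Resident macrophages form a network between the tubules of the kidney, take up debris and immune complexes, and make complement C1q. T cells recognise peptides on MHC molecules: CD4 cells read class II molecules, whose genes are switched on by the coactivator CIITA, and CD8 cells read class I molecules, which need beta-2 microglobulin (B2m). Neutrophils are short-lived blood granulocytes packed with the calcium-binding proteins S100A8 and S100A9, and the chemokine CXCL1 draws them into tissue. The rat MHC is called RT1, with RT1-D and RT1-B as its classical class II molecules.

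CIITA is recruited to class II promoters by factors bound at an X box and a CCAAT box (the Y box) close to the start of transcription. The promoters of the class II invariant chain gene Cd74, of 3 class II chain genes and of B2m are shown because these genes shared a pattern across arrays that is given further on, or stand for class I. Each sequence is the 250 bases before the RefSeq start in assembly GRCr8, read 5′ to 3′ on the gene's strand. Capitals mark the X box core CTAGNAAC and the CCAAT box, CCAAT or ATTGG, in the first 4 sequences. In B2m capitals mark only the interferon response element, searched as GAAA, any 2 bases and GAAA again. The windows lie at chr18:56526956-56527205 (plus strand) for Cd74, chr20:4515165-4515414 (plus) for RT1-Da, chr20:4560163-4560412 (minus) for RT1-Db1, chr20:4604119-4604368 (minus) for RT1-Bb and chr3:129549080-129549329 (plus) for B2m.
Cd74: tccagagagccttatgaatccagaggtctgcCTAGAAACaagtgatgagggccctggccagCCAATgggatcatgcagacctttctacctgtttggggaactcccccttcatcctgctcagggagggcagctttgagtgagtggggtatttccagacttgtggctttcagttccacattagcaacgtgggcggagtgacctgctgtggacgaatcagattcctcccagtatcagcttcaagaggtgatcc
RT1-Da: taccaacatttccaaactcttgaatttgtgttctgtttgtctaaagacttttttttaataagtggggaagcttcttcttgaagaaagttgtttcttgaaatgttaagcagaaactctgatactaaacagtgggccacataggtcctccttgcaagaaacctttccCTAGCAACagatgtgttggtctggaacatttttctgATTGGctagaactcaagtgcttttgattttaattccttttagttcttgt
RT1-Db1: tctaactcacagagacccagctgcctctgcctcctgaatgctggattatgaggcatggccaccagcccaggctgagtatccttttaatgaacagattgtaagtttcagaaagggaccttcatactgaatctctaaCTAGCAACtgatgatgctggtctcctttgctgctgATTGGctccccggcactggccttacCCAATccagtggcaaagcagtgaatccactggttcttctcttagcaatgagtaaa
RT1-Bb: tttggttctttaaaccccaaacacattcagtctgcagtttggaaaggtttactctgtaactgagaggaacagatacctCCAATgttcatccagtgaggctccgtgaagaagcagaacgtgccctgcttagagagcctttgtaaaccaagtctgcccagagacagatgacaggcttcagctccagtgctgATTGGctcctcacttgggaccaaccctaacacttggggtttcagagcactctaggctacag
B2m: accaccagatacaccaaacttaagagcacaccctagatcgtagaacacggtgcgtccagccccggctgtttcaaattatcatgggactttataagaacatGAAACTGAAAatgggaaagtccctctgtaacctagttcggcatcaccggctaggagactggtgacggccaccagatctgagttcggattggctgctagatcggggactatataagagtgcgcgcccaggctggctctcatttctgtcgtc
In RT1-Da the X box letters stood 85 to 78 bases before the start, and a CCAAT box stood 49 to 45 bases before it. RT1-Db1 had the same X box letters at 115 to 108 bases and CCAAT boxes at 80 to 76 and 55 to 51. Cd74 held both motifs farther out, at 219 to 212 and 189 to 185 bases, while RT1-Bb held CCAAT boxes at 172 to 168 and 61 to 57 and no match to the X box letters in this window. Searched on both strands, the X box core occurred in 2.98% of 33469 RefSeq promoter windows of the same length, the CCAAT box in 34.0%, both together in 0.998% and the interferon response element in 3.41%. Of the 28 genes among the 36 with a window in the table, Cd74, RT1-Da and S100a9 held the X box letters and Adgre1 and B2m the interferon response element. A match is a string of letters and not a measured binding site.

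Values are log2 of the processed signal minus the 75th percentile of the array, so a level of 0 equals that percentile and a step of 1 is a doubling. A level belongs to its probe and was compared only across arrays. On the 6 arrays 60.9% to 70.4% of the probes exceeded background clearly. Each treatment had a slide of its own with its own scan day, so effects of slide or scan day cannot be told apart from those of monuron. All 7 proximal tubule genes and all 5 podocyte genes listed as tissue markers were detected on every array. The proximal tubule genes were themselves all below 0 with 0 called, their mean running from -0.07 to 0.07 in corn oil and from -0.35 to -0.27 in monuron. All 6 endothelial genes were below 0 as well, with a median of -0.18 and 0 called. Of the 5 podocyte genes 4 were below 0, their mean running from -0.10 to 0.10 in corn oil and from -0.15 to 0.17 in monuron. Of 5 tested fibroblast genes 4 were above 0, with a median of 0.10. Liver transcripts varied between arrays: relative to the corn oil mean, the mean of 10 hepatocyte genes was -0.38, -0.52 and 0.89 on corn oil replicates 1 to 3 and 1.55, 0.42 and 0.37 on monuron replicates 1 to 3. For Alb, the albumin gene, the levels were 0.41, 0.12 and 2.67 on the corn oil arrays and 3.93, 2.12 and 2.04 on the monuron arrays. Red cell genes were higher on every monuron array: the mean of 7 ran from -0.26 to 0.22 in corn oil and from 1.22 to 1.55 in monuron. With bulk RNA, fewer cells of a type and less RNA per cell cannot be told apart.

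The comparison of monuron with corn oil asks whether transcripts of immune cells were changed by the herbicide. Of the 36 genes 30 passed the detection filter, which asks that every array of 1 group or of both gave a signal well above background. At an adjusted p under 0.05 (limma, Benjamini-Hochberg over 30229 genes), 0 of the 30 were called in either direction, where 1.36% of all genes tested were called, 0.949% higher and 0.414% lower. At an unadjusted p under 0.05, 3 of the 30 were higher in monuron (S100a8, S100a9 and Cxcl1) and 7 were lower (Aif1, Cd3d, Cd4, Cd8a, Lck, B2m and Ciita). Among all genes tested 10.9% were higher and 6.73% lower by that measure. The count of 10 genes was 2 without monuron replicate 3, 3 without monuron replicate 1 and 5 without corn oil replicate 1. It was 6 without corn oil replicate 3, 8 without corn oil replicate 2 and 12 without monuron replicate 2. Without scaling it was 5, and with median centring 11. The count over all genes moved too, from 5320 to 4280 without monuron replicate 3, 4170 without monuron replicate 2 and 6078 without scaling. The fold change lay below 0 for 23 of the 30 genes, against 44.7% of all genes, and their median log2 fold change was -0.25 beside 0.02 for all genes. Scaled on the spike-in probes instead, the median of all genes was -0.48, and 20 of the 30 genes were called lower, where 68.3% of all genes were.

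Cxcl1 passed the filter only through the monuron group, since only 2 of the 3 corn oil arrays detected it. The 6 genes that did not pass were the haemoglobin scavenger receptor Cd163, the integrin Itgam, the T cell genes Cd3e, Cd2 and Cd5, and the class II chain gene RT1-Ba. Cd163 and RT1-Ba were not well above background on any array. Itgam was so on 1 corn oil and 2 monuron arrays, Cd3e and Cd2 on 1 array of each group, and Cd5 on 1 corn oil array. No difference is given for these 6 genes.

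**Figure D1:**
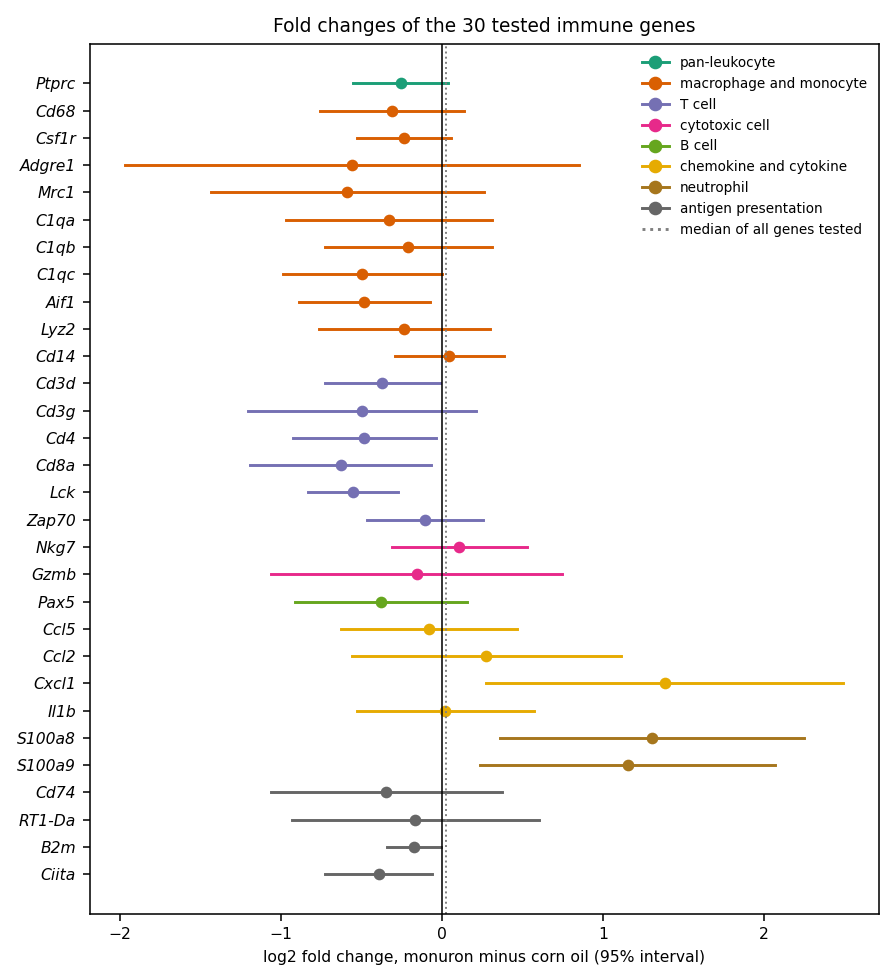
Log2 fold change, monuron minus corn oil, of the 30 tested genes, with 95% intervals from limma (3 arrays per group) and colours by role. Cxcl1, S100a8 and S100a9 lie above 1, the others lie between -0.63 and 0.28, and the dotted line is the median of all genes tested, 0.02.

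The neutrophil genes were the only role group with every tested gene above 0. S100a8, which encodes a subunit of calprotectin, measured -2.14, -2.59 and -1.97 on corn oil replicates 1 to 3 and -1.72, -0.30 and -0.76 on monuron replicates 1 to 3. All 3 monuron arrays lay above all 3 corn oil arrays, monuron replicate 1 only narrowly, a pattern found with monuron above for 15.5% of all genes. The log2 fold change was 1.31 ± 0.38 (SE), 2.47-fold, with a 95% interval of 0.36 to 2.25 on the log2 scale and an adjusted p of 0.177 in limma. S100a9, the partner subunit, had levels of -0.98, -1.31 and -0.70 in corn oil and -0.65, 0.70 and 0.41 in monuron. Again monuron replicate 1 stood just above the highest corn oil array and the other two stood well above it. The log2 fold change was 1.15 ± 0.37, 2.22-fold, with an adjusted p of 0.205.

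Cxcl1, the neutrophil-attracting chemokine, measured -3.59, -4.98 and -4.35 in corn oil and -2.60, -3.64 and -2.54 in monuron. Monuron replicate 2 lay just below corn oil replicate 1, so the groups overlapped. Corn oil replicate 2 lay under the lowest signal well above background on its array, so the difference of 1.38 ± 0.45 (adjusted p = 0.208) rests partly on a value at background. With such values raised to that floor it was 1.32, and nothing is read from its direction, since the gene was tested only because it was high in monuron. Among further neutrophil and granulocyte genes 7 of 21 were tested, and 0 were called. All 6 that every array detected lay above 0, with a median of 0.21. The other tested gene, Il1r2, passed only through the monuron group, where it was high. The resistin-like gene Retnlg was higher by 0.58 ± 0.21 (adjusted p = 0.237) and the lipocalin gene Lcn2, which injured tubule cells also express, by 0.62 ± 0.26 (adjusted p = 0.296). The granule protease genes Elane, Ctsg and Mmp8, the granule protein genes Ltf and Ngp and the receptor genes Cxcr1 and Trem1 were well above background on 0 arrays, and are named because of that. Red cell transcripts were higher on the same 3 arrays, and so were tubule injury genes, of which 4 of 8 were called higher and whose mean ran from -0.13 to 0.14 in corn oil and from 0.87 to 1.06 in monuron. The part of either in the S100a8 and S100a9 values was not tested.

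**Figure D2:**
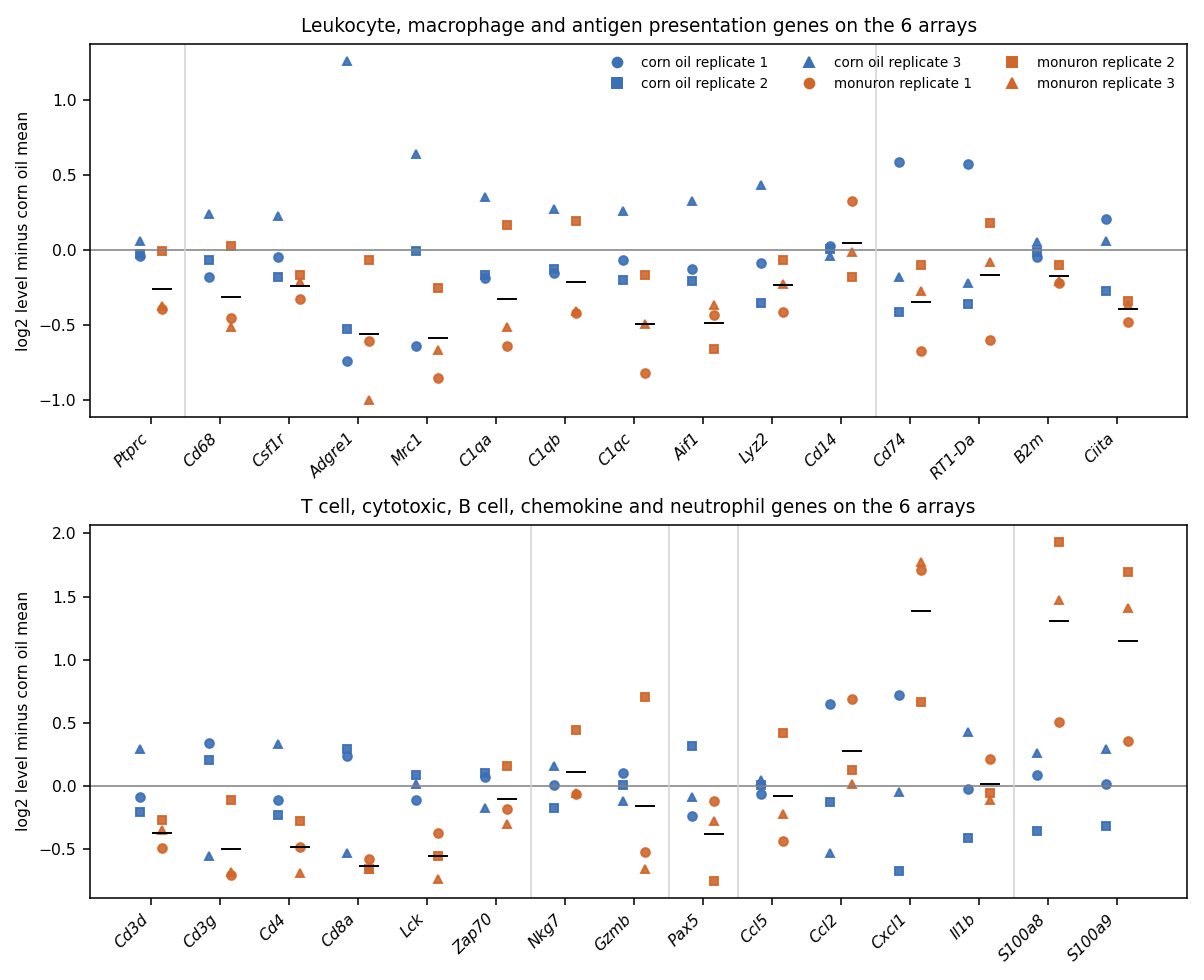
Log2 level of each tested gene on the 6 arrays, minus the gene's corn oil mean, with colour for treatment, marker shape for replicate number and a black bar for the monuron mean. Monuron replicate 2 is the highest monuron array for most genes, corn oil replicate 3 (blue triangle) tops 9 of the 10 macrophage genes, and S100a8 and S100a9 are higher on every monuron array.

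The other 3 chemokine and cytokine genes differed by less than the spread between arrays. Ccl2, a monocyte attractant, measured -0.58, -1.36 and -1.76 in corn oil and -0.54, -1.11 and -1.22 in monuron, a difference of 0.28 ± 0.34. For the T cell chemokine Ccl5 the values were 1.55, 1.62 and 1.66 against 1.18, 2.03 and 1.39, which is a difference of -0.08 ± 0.22. Il1b, the gene of interleukin-1 beta, differed by 0.02 ± 0.22. The groups overlapped for all 3 genes, and the sign of each of these 3 differences turned under at least 1 scaling or with 1 array left out. Of 41 further chemokine and cytokine genes 34 were tested, 0 were called, and the median was 0.02, or -0.0033 over the 33 that every array detected. The smallest p in that list was that of Ccl9, a CC chemokine gene, at -4.08, -4.36 and -3.40 in corn oil and -2.24, -2.78 and -2.91 in monuron, a difference of 1.30 ± 0.30 (adjusted p = 0.112). Ccl21, the lymphatic chemokine that guides CCR7-bearing cells, was lower by 0.74 ± 0.25 (adjusted p = 0.219).

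Macrophage and monocyte genes lay mostly below their corn oil means, with 9 of 10 tested genes below 0 and a median log2 fold change of -0.32. Their corn oil arrays were themselves spread. The mean over the 10 genes, relative to the corn oil mean, was -0.22, -0.18 and 0.40 on corn oil replicates 1 to 3 and -0.46, -0.12 and -0.44 on monuron replicates 1 to 3, so the groups overlapped. Corn oil replicate 3 was the highest of all 6 arrays for 9 of the 10 genes, and for 15 of 22 tested further macrophage genes. It was the highest of the 6 for 15.3% of all genes tested. Without that array the median of the 10 genes was -0.14. Beside these values, the proximal tubule and endothelial genes were lower too, while 4 of 5 fibroblast genes lay above 0. The part of these cell types was not tested.

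The widest spread was in Adgre1, the gene of the macrophage surface protein F4/80. It measured -0.62, -0.41 and 1.38 in corn oil and -0.49, 0.05 and -0.88 in monuron. Corn oil replicate 3 stood more than 1 log2 unit above every other array, and the difference of -0.56 ± 0.57 became 0.075 without it. Mrc1, the mannose receptor gene, was also highest on corn oil replicate 3: it measured -3.41, -2.77 and -2.13 in corn oil and -3.62, -3.02 and -3.43 in monuron, a difference of -0.59 ± 0.34. Siglec1, a sialic acid-binding receptor of tissue macrophages from the further list, measured -4.72, -4.42 and -2.95 against -5.62, -5.56 and -5.83, a difference of -1.64 ± 0.46 (adjusted p = 0.166). Every monuron array was below every corn oil array for Siglec1, as for 10.3% of all genes tested. Its monuron values lay close to the lowest signal well above background on monuron replicates 1 to 3, at -6.00, -5.81 and -5.90. Corn oil replicate 3 again stood far above the other corn oil arrays. Alb was also highest among the corn oil arrays on that array.

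Aif1, which encodes the actin-binding protein IBA1 of activated macrophages, was the macrophage gene with the smallest p. Its levels were 2.85, 2.77 and 3.30 in corn oil and 2.54, 2.32 and 2.61 in monuron, with no overlap. The difference was -0.48 ± 0.17 (adjusted p = 0.225), while the other passing probes of Aif1 gave -0.17 and -0.12, with overlapping groups. Monuron replicate 2 was the lowest monuron array on the tested probe but the highest on those, at 2.65 and 2.23. Across all genes tested 10.3% had monuron entirely below corn oil.

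The C1q chains, which start the classical complement cascade, shared an order of arrays. C1qa measured 1.89, 1.91 and 2.43 in corn oil and 1.44, 2.24 and 1.57 in monuron. C1qb measured 2.97, 3.00 and 3.40 against 2.70, 3.32 and 2.72, and C1qc 0.09, -0.04 and 0.42 against -0.66, -0.01 and -0.34. In all 3 genes corn oil replicate 3 was the highest array and monuron replicate 2 the highest of its group. The differences were -0.33 ± 0.26, -0.21 ± 0.21 and -0.49 ± 0.20, with adjusted p-values of 0.562, 0.649 and 0.285.

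The other 4 macrophage genes tested and Ptprc overlapped between the groups. Cd68, a lysosomal membrane gene, was at -0.31 ± 0.18, Csf1r, the receptor for the macrophage growth factor CSF1, at -0.24 ± 0.12 (its other passing probe at 0.0034), and Lyz2, lysozyme, at -0.23 ± 0.22. For Cd14, the lipopolysaccharide co-receptor gene, the brightest probe gave 0.05 ± 0.14 and the other passing probe -0.31. The pan-leukocyte gene Ptprc, CD45, measured -0.28, -0.27 and -0.18 in corn oil and -0.63, -0.25 and -0.61 in monuron. Monuron replicate 2 lay within the corn oil values and the other two monuron arrays below them. The difference was -0.26 ± 0.12 (adjusted p = 0.340), and its 5 passing probes ranged from -0.37 to 0.03. Among 30 further macrophage genes 22 were tested, 0 were called, 18 lay below 0 and the median was -0.16. Over the 21 that every array detected it was -0.17. Laptm5, a lysosomal gene of blood-forming cells, was at -0.31 ± 0.14 there.

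**Figure D3:**
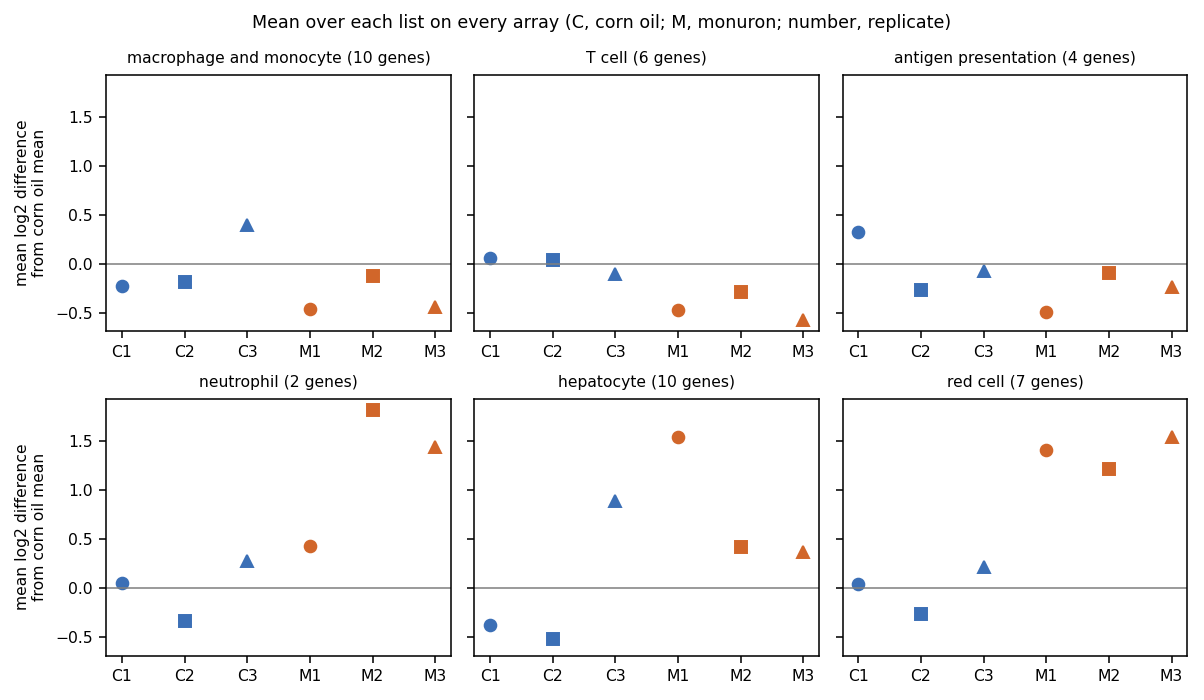
Mean over the tested genes of 6 lists on each array, as the log2 difference from the corn oil mean (C, corn oil; M, monuron; number, replicate). The T cell mean is lower and the neutrophil and red cell means are higher on every monuron array, whereas the macrophage and antigen presentation means overlap between groups and the hepatocyte mean is highest on M1 and C3.

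All 6 tested T cell genes lay below 0, with a median log2 fold change of -0.49. Their mean relative to corn oil was 0.06, 0.04 and -0.10 on corn oil replicates 1 to 3 and -0.47, -0.28 and -0.57 on monuron replicates 1 to 3, so the monuron arrays were all below the corn oil arrays. With normexp background correction the median was -0.23. The proximal tubule and endothelial means were also lower on the monuron arrays. The fibroblast mean there, 0.04 to 0.06, lay within its corn oil range of -0.22 to 0.33. The part of these cell types in the T cell values was not tested. Lck, the kinase that starts signalling from the T cell receptor, had the smallest p of the 30 genes. It measured -4.55, -4.36 and -4.43 in corn oil and -4.82, -5.00 and -5.18 in monuron. Both groups were tight and separate. The difference was -0.55 ± 0.11, 1.47-fold lower, with a 95% interval of -0.83 to -0.27, an unadjusted p of 0.0029 and an adjusted p of 0.095. With normexp the difference shrank to -0.16.

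Cd8a, which encodes a chain of the class I co-receptor, measured -3.99, -3.94 and -4.76 in corn oil and -4.81, -4.89 and -4.89 in monuron. Corn oil replicate 3 sat beside the monuron arrays and the other two corn oil arrays stood well above. The difference was -0.63 ± 0.23 (adjusted p = 0.244). Without corn oil replicate 3 it was -0.89 with an adjusted p of 0.034, the only call of a gene of the 36 in any fit that left arrays out, in a fit where 0.0891% of all genes were called lower. Cd4, the class II co-receptor gene, was at -3.23, -3.35 and -2.79 against -3.61, -3.40 and -3.81. Its groups were separate by a narrow gap, and the difference was -0.48 ± 0.18 (adjusted p = 0.255). Macrophages of the rat also carry CD4.

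Of the CD3 chains, which transmit the signal of the T cell receptor, Cd3d measured -0.18, -0.30 and 0.19 in corn oil and -0.59, -0.37 and -0.45 in monuron, a difference of -0.37 ± 0.15 (adjusted p = 0.273). Cd3g measured -1.37, -1.50 and -2.26 against -2.41, -1.82 and -2.39, a difference of -0.50 ± 0.29 (adjusted p = 0.427). The monuron arrays were below all corn oil arrays for Cd3d, and overlapped them for Cd3g through corn oil replicate 3. The kinase gene Zap70, which acts after Lck, showed the smallest difference in the list, -0.10 ± 0.15. The lowest signal well above background lay between -6.04 and -4.80 on the 6 arrays, and Lck and Cd8a were faint by that measure. Among 35 further T and NK cell genes 21 were tested, 0 were called, 14 lay below 0 and the median was -0.07. Of the 16 that every array detected, 10 lay below 0, with a median of -0.06, and the others passed only through the monuron group. The co-stimulatory receptor gene Cd27 was lower by 0.46 ± 0.16 (adjusted p = 0.223) and the granzyme gene Gzma by 0.58 ± 0.27 (adjusted p = 0.338).

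The 2 genes of cytotoxic cells lay on either side of 0. Nkg7, a granule membrane gene, measured -0.11, -0.28 and 0.05 in corn oil and -0.17, 0.33 and -0.17 in monuron, and Gzmb, granzyme B, -3.45, -3.55 and -3.68 against -4.08, -2.85 and -4.21. In both genes monuron replicate 2 was the highest of all arrays. The differences were 0.11 ± 0.17 and -0.16 ± 0.37, and the 3 passing probes of Gzmb ranged from -0.62 to -0.05.

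Pax5, a transcription factor of B cells, measured 0.24, 0.80 and 0.39 in corn oil and 0.36, -0.27 and 0.20 in monuron, a difference of -0.38 ± 0.22 (adjusted p = 0.421). Among 20 further B and plasma cell genes 9 were tested, and 0 were called. Of the 8 that every array detected, 7 lay above 0, with a median of 0.11. Irf4, a plasma cell factor gene, was detected on all 3 monuron arrays and on 0 corn oil arrays, and passed only through monuron. The groups overlapped for Irf4: corn oil replicate 3, at -5.23, lay above monuron replicates 1 and 3, at -5.35 and -5.33. Nothing is read from its direction (adjusted p = 0.319 in limma), since it was tested only because it was high in monuron. The B cell genes Cd22, Blk, Bank1 and Cr2, named here for that reason, did not pass the detection filter.

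In the antigen presentation group all 4 tested genes lay below 0, with a median of -0.26 and 0 calls. All the proximal tubule and endothelial genes lay below 0 too, but only 1 of 5 fibroblast genes, and their part was not tested. Ciita, the class II coactivator gene, measured -1.37, -1.85 and -1.52 in corn oil and -2.05, -1.91 and -1.94 in monuron. The monuron arrays were close together and below all corn oil arrays. The difference was -0.39 ± 0.13 (adjusted p = 0.225). The other passing probe of Ciita gave -0.75, but its groups overlapped, with corn oil replicate 2 at -3.21 and monuron replicate 3 at -3.11. On that probe corn oil replicate 3, at -1.56, stood far above every other array. B2m measured 7.55, 7.58 and 7.65 against 7.37, 7.50 and 7.39, a small difference of -0.17 ± 0.07 (adjusted p = 0.273) without overlap. Its 5 passing probes ranged from -0.30 to -0.12.

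Cd74 and RT1-Da, whose promoters carry the X box letters shown above, varied within each group more than between groups. Cd74 measured 6.14, 5.15 and 5.38 in corn oil and 4.88, 5.46 and 5.29 in monuron, and RT1-Da 3.59, 2.66 and 2.80 against 2.42, 3.20 and 2.94. Corn oil replicate 1 was the highest array and monuron replicate 1 the lowest for both. The differences were -0.35 ± 0.29 and -0.17 ± 0.31, and the RT1-Da difference became 0.12 without corn oil replicate 1 and 0.05 without monuron replicate 1. On its brightest probe Ciita also had corn oil replicate 1 highest and monuron replicate 1 lowest. Its other passing probe had corn oil replicate 3 highest, at -1.56, with corn oil replicate 1 at -2.71 and monuron replicate 1 lowest, at -3.42.

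Corn oil replicate 1 was also the highest array for the other class II chain genes tested. RT1-Db1, a class II beta chain gene, measured 3.22, 2.35 and 2.54 in corn oil and 2.00, 2.82 and 2.74 in monuron, and RT1-Bb 3.99, 2.83 and 2.74 against 2.46, 3.37 and 3.13. Cd74 and the 8 class II chain genes tested (RT1-Da, RT1-Db1, RT1-Db2, RT1-Bb, RT1-DMa, RT1-DMb, RT1-DOa and RT1-DOb) were all highest on corn oil replicate 1 of the 6 arrays, against 17.1% of all genes tested. Monuron replicate 1 was the lowest monuron array for 8 of the 9, against 35.8% of all genes, and the lowest of all 6 arrays for 5 of the 9. RT1-DOa was detected on 1 corn oil array and 3 monuron arrays. RT1 genes are near-identical copies that differ between rat strains, so probes may share signal and single members are uncertain. Of 20 further class II pathway genes 18 were tested, 0 were called and the median was -0.14, or -0.15 over the 17 that every array detected. Ifi30, a lysosomal thiol reductase of antigen processing, was at 0.25 ± 0.07 (adjusted p = 0.184) and the lysosomal protease gene Ctsl, which tubule cells also express, at -0.34 ± 0.14 (adjusted p = 0.302).

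**Figure D4:**
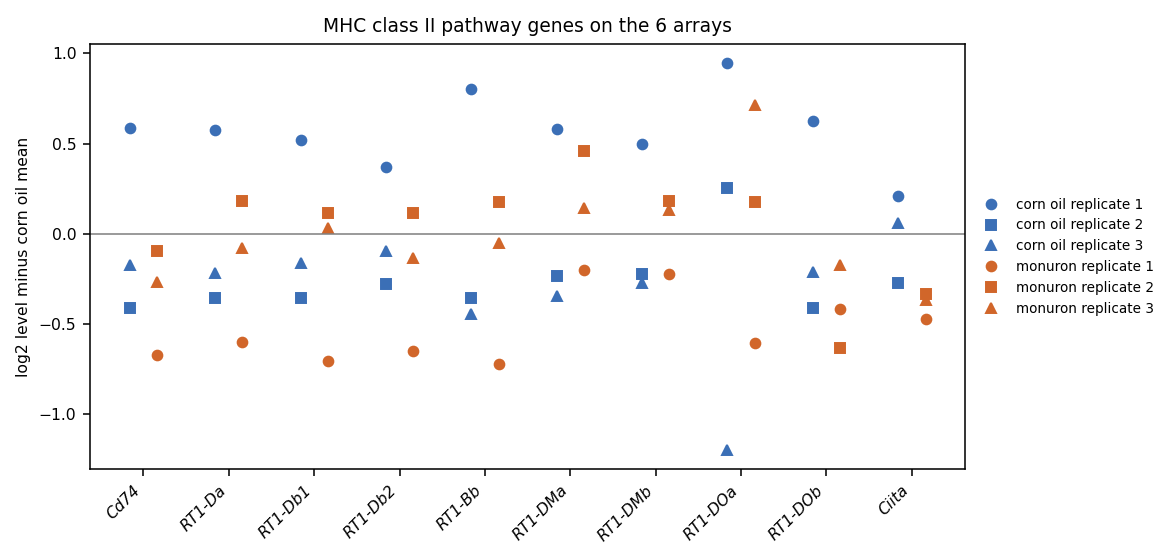
Log2 level of class II pathway genes on the 6 arrays, minus each gene's corn oil mean, with colour for treatment and marker shape for replicate number. Corn oil replicate 1 (blue circle) is the highest array for Cd74 and every RT1 class II chain gene, and monuron replicate 1 (orange circle) is mostly the lowest monuron array.

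Of 24 further class I pathway genes 22 were tested and 0 were called, with a median of -0.04, or -0.06 over the 21 that every array detected. The smallest p-values belonged to the class I genes RT1-CE10, at -0.27 ± 0.07 (adjusted p = 0.161), and RT1-S3, at -0.21 ± 0.06 (adjusted p = 0.188). Both were below corn oil on all 3 monuron arrays, as B2m was. Interferon response genes, a class to which B2m and other class I genes also belong, were listed apart: 26 of 33 were tested, 0 were called higher, and Usp18, a deubiquitinase gene, and Irf7, a transcription factor gene, were the 2 called lower. Their median was -0.29. Usp18 fell by 1.40 ± 0.14 on the log2 scale (adjusted p = 0.020) and Irf7 fell by 1.07 ± 0.14 (adjusted p = 0.034). Irf7 lost its call on leaving out any 1 array, and Usp18 on leaving out any but corn oil replicate 3.

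Monuron replicate 2 was the highest of the 3 monuron arrays for 22 of the 30 genes (73.3%), against 32.6% of all genes tested. Corn oil replicate 3 was the highest corn oil array for 18 of the 30 (60.0%), against 31.6% of all genes. Monuron replicate 1 was the lowest array of all 6 for 14 of the 30 (46.7%), against 14.2% of all genes, and it held the highest liver transcript levels. Corn oil replicate 3 and monuron replicate 1 were the 2 arrays highest in liver transcripts. Of the 10 macrophage genes, 9 were highest of all on the first and 6 lowest of all on the second. Leaving both out therefore raises most macrophage differences, whatever the liver transcripts do. Without both, Adgre1 turned to 0.098, C1qa to 0.0062, C1qb to 0.033, Lyz2 to 0.073 and Ccl5 to 0.13. Cd14 turned the other way, to -0.12, and Ccl2 to -0.19. The part of liver transcripts was not tested.

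**Figure D5:**
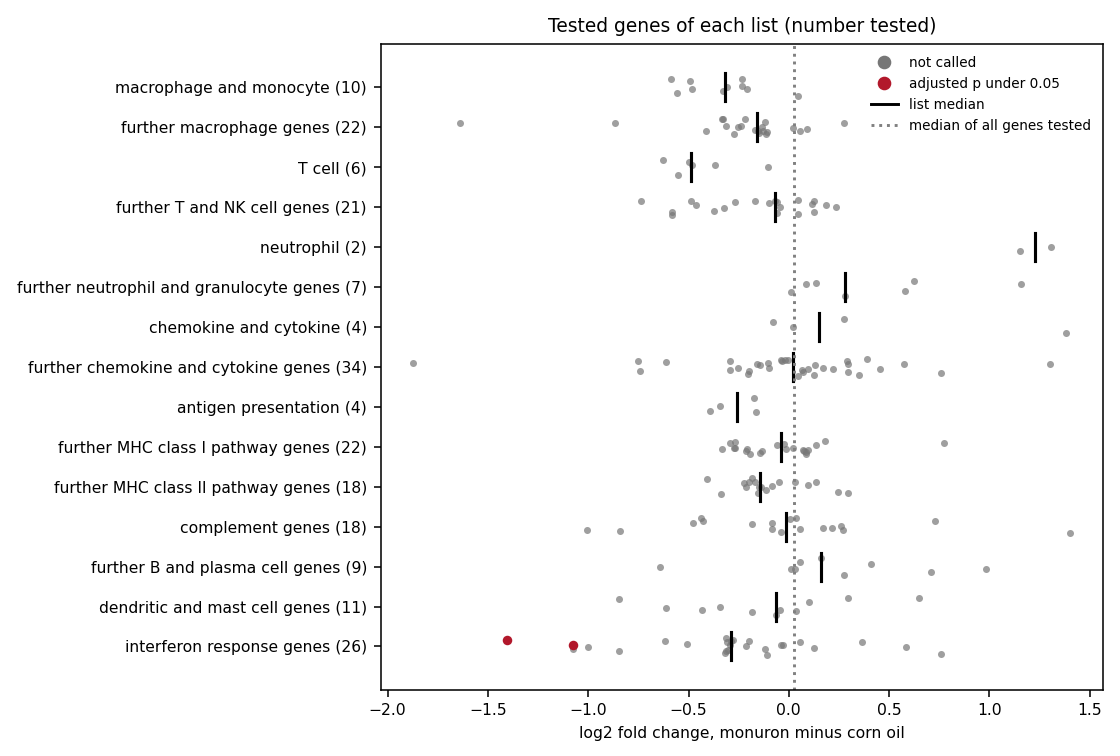
Log2 fold change, monuron minus corn oil, of every tested gene in 5 of the role groups and the context lists, with the number tested in parentheses, a black bar for the list median and a dotted line at the median of all genes tested, 0.02. The red points are the called genes, Usp18 and Irf7, and the T cell list sits lowest and the neutrophil pair highest by median.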

How the data were processed

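The scanner files that the authors deposited give each spot's intensity, unlogged, and per the submitters' processing notes came from Agilent Feature Extraction 10.7. The authors' deposited value table is a ratio on a linear scale: for values of at least 0.1 it matched the processed signal over a constant of its array to within 0.0497%. The columns had medians of 0.1085, 0.111 and 0.1121 in corn oil and 0.1114, 0.1106 and 0.1099 in monuron.

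Levels were taken as log2 processed signal relative to the 75th percentile of 61537 non-control probes. The 1439 control spots and outlier spots were left out, and 0 spots were saturated. Probes detected well above background throughout 1 group or both were kept (41125), and the brightest probe of each gene was tested. The 30229 genes entered limma 3.58.1 in R 4.3.3 (lmFit, eBayes, two-sided, Benjamini-Hochberg, threshold 0.05), from which all adjusted p-values come. Errors after ± are standard errors, with n = 3 arrays per group. The labels speak of 3 animals per group without tying arrays to animals. The fit was tested on simulated data.

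Probes carry accessions only, and a RefSeq table (GRCr8) named 28206 of them (45.8%). The array design cites an older build, so coordinates are those of the RefSeq promoter table alone. The median spot signal stood in for the planned mean in the normexp alternative (offset 50).

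The 36 genes, the context lists and the marker lists were chosen with earlier results of these data known, so counts over them are descriptions and no list was tested. All 36 are named, and from each context list its called genes or, where it has none, the 2 with the smallest p, of which 1 is not reported here. Genes named for lack of detection, further class II chain genes and the marker genes were named beside these. Alternatives changed the scaling, background correction, source of values, detection filter, floor, probe rule, variance model and block, and left out arrays.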

Additional observations from a re-analysis of the deposited data

How the results depend on the processing

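None of the 36 genes was called higher under any of the 19 alternatives. Scaling on the spike-in probes shifted the median of all genes from 0.02 to -0.48 and called 68.3% of all genes lower (20640), with 20 of the 36 and 113 context genes among them. The medians were then -0.82 for macrophage, -0.99 for T cell and -0.76 for antigen presentation genes. Without scaling the median of all genes was 0.11, with 1.21% called higher and 0.202% lower. With normexp, 1.49% of genes were called higher and 1.05% lower, context genes 1 higher and 4 lower, and the T cell median was -0.23. No detection filter gave 0.147% higher, 0.042% lower and 0 context genes. Detection on all 6 arrays gave 4 context genes lower, and eBayes with trend and robust gave 1.43% of genes higher, 0.913% lower and 5 context genes lower. Leaving out 1 array gave 0.082% to 0.366% of genes higher, 0.016% to 0.089% lower, 0 to 2 context genes lower and 0 to 1 of the 36 lower (Cd8a). Without corn oil replicate 3 and monuron replicate 1 together, 0 genes were called by limma in either direction, context genes included, with 4192 at an unadjusted p under 0.05. With 1 array left out, the median ran from -0.45 to -0.14 for macrophage, -0.57 to -0.39 for T cell and -0.44 to -0.12 for antigen presentation genes.

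Same-numbered arrays deviated with correlations of -0.08, 0.11 and -0.17, so the numbers did not pair the samples. With the replicate number as a block, 0 genes were called by limma in either direction, 0 of the 36 and 0 context genes, with 4557 genes and 6 of the 36 at an unadjusted p under 0.05.

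Signs turned for 11 of the 36 genes and for Cd55 and Ifi30. Spike-in scaling gave -0.46 for Cd14, -0.39 for Nkg7, -0.23 for Ccl2, -0.48 for Il1b, -0.23 for Cd55 and -0.26 for Ifi30. The mean of a gene's probes gave -0.13 for Cd14, and no scaling gave 0.0066 for Ccl5. With 1 array left out, Adgre1 ran from -0.92 to 0.075, Cd14 from -0.098 to 0.16, Nkg7 from -0.058 to 0.19, Gzmb from -0.59 to 0.090, Ccl5 from -0.33 to 0.099, Il1b from -0.18 to 0.23 and RT1-Da from -0.34 to 0.12. Without corn oil replicate 3 and monuron replicate 1 together, Adgre1 was 0.098, C1qa 0.0062, C1qb 0.033, Lyz2 0.073, Cd14 -0.12, Ccl5 0.13 and Ccl2 -0.19. The cause of these changes was not tested. S100a8 kept its sign throughout, with adjusted p-values from 0.090 to 0.357, as did S100a9 (0.093 to 0.396) and Lck (0.0032 to 0.239). For Cxcl1 the adjusted p-values ran from 0.116 to 0.495. Nothing is read from the sign of Cxcl1, since it was tested only because it was high in monuron. Lck ran from -1.06 with spike-in scaling, where it was called lower, to -0.16 with normexp.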

Other observations

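Complement genes beyond the C1q chains differed in both directions. Of 23 listed, 18 were tested and 0 were called, with a median log2 fold change of -0.02, or -0.04 over the 17 that every array detected. C4a, a component of the classical pathway that tubule cells and the liver also make, measured 4.73, 4.46 and 4.38 on corn oil replicates 1 to 3 and 3.60, 3.23 and 3.72 on monuron replicates 1 to 3. Every monuron array was below every corn oil array, and the difference was -1.004 ± 0.16, with an adjusted p of 0.053 in limma that ranged from 0.003 to 0.238 over the alternatives. Cd55, a surface inhibitor of complement activation, was narrowly spread at -2.45, -2.43 and -2.43 in corn oil and -2.14, -2.20 and -2.15 in monuron. Its difference was 0.27 ± 0.06 (adjusted p = 0.101), and it turned to -0.23 with spike-in scaling.

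Of 20 genes of dendritic and mast cells 11 were tested and 0 were called, with a median of -0.06, or -0.26 over the 8 that every array detected. Batf3, which cross-presenting dendritic cells need, was at -0.43 ± 0.19, with the groups separate by a narrow gap. Zbtb46, a transcription factor gene of classical dendritic cells, was detected on 1 corn oil array and 3 monuron arrays and passed only through monuron. Its difference of 0.65 ± 0.28 became 0.13 with low values raised to the lowest signal well above background.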
